A study of Drosophila melanogaster with 84 samples.

Results

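Homeobox genes encode transcription factors that bind DNA through a homeodomain, and 45 of them were followed here through sorted clock neurons of the Drosophila brain. The members were taken by gene symbol from the rows of the deposited count tables, which hold 15801 genes, and 0 of the 45 were missing. By the type of homeodomain they comprise 10 paired-type genes, 6 Hox genes and 4 Hox-like ones, 5 TALE genes, 5 LIM genes, 5 POU genes, 4 NK-like genes (with Dll among them), and 2 each of the sine oculis, CUT and zinc finger types.

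The study sorted single neurons by fluorescence from dissected brains of adult flies, equal numbers of males and females, in which Clk856-GAL4 drives EGFP. This driver labels most clock neurons but only some of the DN3 group, and it also labels cells outside the clock network, so a sorted cell is not a clock neuron by its fluorescence alone. Flies were entrained in light-dark cycles (LD) and collected at 2, 6, 10, 14, 18 and 22 h of the cycle (ZT), or were then kept in constant darkness for 3 days (DD) and collected at the same hours of the subjective day (CT). CEL-Seq2 with an added round of in vitro transcription gave each well a barcode and each mRNA molecule a unique molecular identifier (UMI), so that the values count molecules.

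The files held 84 libraries, 36 from LD and 48 from DD, with 191993 to 4259643 UMIs each. Of 8060 wells, 5001 had 1000 to 6000 genes and 6000 to 75000 UMIs and were kept. Libraries of 1 time point that carry the same batch number in their labels were taken as 1 batch, which gave 28 batches. LD and DD hold 14 each, and a time point has 2 or 3. Cells of 1 batch are not independent, so UMIs were summed per batch and class of cells, and errors and p-values of the tests below take batches as replicates. Where the batch is a block, they measure the spread that is left once differences between batches are removed. Exact intervals for shares of cells count cells and do not measure the spread between batches. LD and DD share 0 batch numbers, so that the effects of light and of batch cannot be told apart. Markers of neurons gave a UMI in 100% of the cells of each class, and the glial homeobox gene repo, itself a member, gave one in 1.35% to 6.28% of cells. Over the 5 glial markers in the files a UMI was found in 30.8% to 49.1% of cells, the highest share being that of AstA cells. Sums of the glial markers reached 27.5 per 10000 UMIs in ITP cells, and sums of the fat body markers 20.1, while their medians over batches lay at or below 0.824 in every class. The high sums came from ZT6 batch 2 and ZT14 batch 1 and appeared in cells of all classes there. Their part in the results was not tested.

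Neurons keep their identity through combinations of transcription factors, and homeobox genes are prominent among these: in many nervous systems a neuron type can be told by the homeobox genes that it expresses. Several of the members have known roles in insect brains, among them the Pax6 genes toy and ey, the LIM genes that act in neuropeptide cells and motor neurons, and the POU genes that set the wiring of olfactory neurons. The core loop of the clock itself is run by factors of other families.

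Classes of cells were set by the neuropeptide genes that mark known clock neurons, in TP10K, the UMIs of a gene per 10000 UMIs of the cell. Cells with at least 150 TP10K of Pdf, the main clock neuropeptide of the ventral lateral neurons, numbered 418. The gates for ITP (150), Trissin (40), CCHa1 (10), AstA (10) and for AstC (50) together with the glutamate transporter gene VGlut (8) gave 140, 169, 191, 220 and 444 cells. A further 35 cells passed several gates and were left out, and 3384 passed none and are called ungated. The gate genes check each class: Pdf averaged 450 TP10K in Pdf cells and 11.8 to 17.5 in the other classes, and CCHa1 averaged 34.6 in CCHa1 cells and 0.23 to 0.345 elsewhere. A UMI of Pdf was nevertheless found in 91.1% to 98.6% of the cells of other classes, so a UMI alone does not show that a cell makes the transcript. Summed clock genes had median levels of 70 to 122 TP10K over batches in the gated classes and 46.2 in ungated cells.

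Every member gave at least 1 UMI in the kept cells, and their spread across cells was wide. A UMI was found in over 50% of kept cells for 8 members, namely hth, exd, toy, Lim1, vvl, onecut, zfh2 and Ubx. Another 14 were found in 10% to 50% of cells and 21 in 1% to 10%. The remaining 2, ems and unpg, which pattern the embryonic head and nervous system, were found in 0.68% and 0.2% of cells. When every cell was thinned to 6000 UMIs, the median number of members found per cell was 7 in each gated class and 8 in ungated cells, with 1 to 19 in single cells. A test of levels was possible for 18 of the 45 members, since the filter on low counts removed the others. That filter lets a gene through when it is high in 1 class, so the number that passed says nothing by itself.

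**Figure D1:**
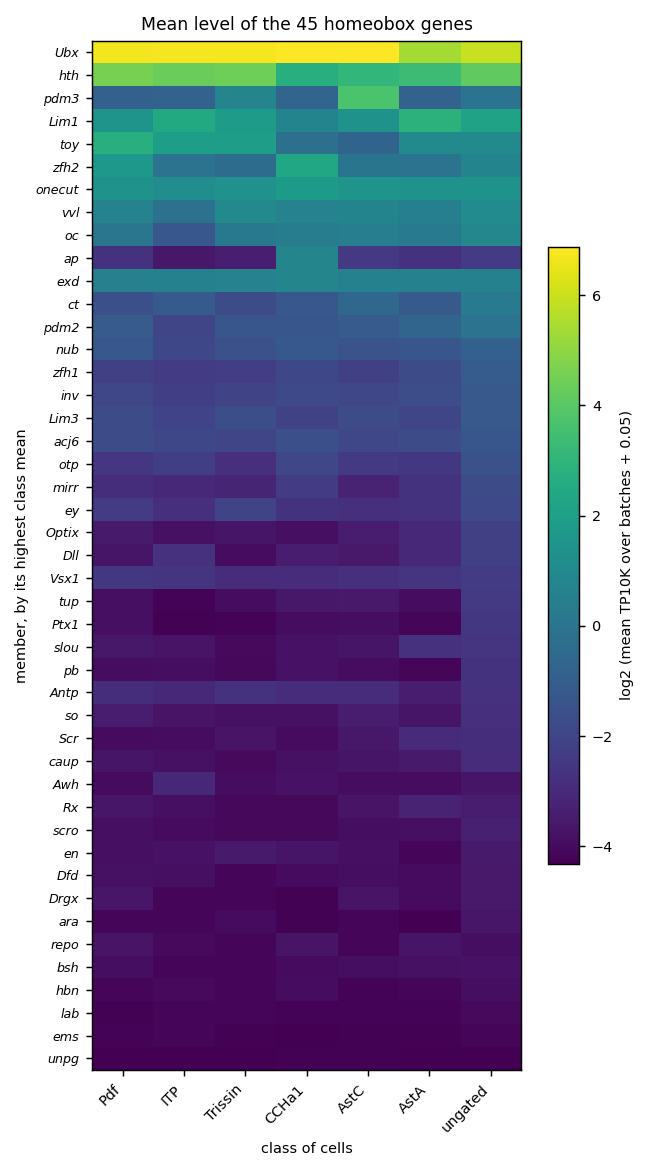
Mean level of the 45 homeobox genes over batches, as log2 of TP10K plus 0.05, in 6 gated classes and in ungated cells, ordered by the highest class mean. A few members, among them toy, zfh2, pdm3 and ap, change from class to class, while exd is even across them and most others lie near the floor in every gated class.

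Each gated class was compared with the mean of the other 5, with the batch as a block and adjustment over the 3778 genes tested. A member was called with an adjusted p under 0.05 where the higher level was at least 25% above the lower one. Of the 18 members, hth, pdm3 and zfh2 were called in 6 of the 6 gated classes, toy and Lim1 in 5 and Ubx in 4. In contrast, exd, Lim3, vvl, acj6, nub, pdm2 and inv were called in 0. As each class is set against the mean of the others, a gene high in a few classes tends to be called lower elsewhere. Median batches of pdm3 were 0.269 to 0.386 TP10K in Pdf, ITP, CCHa1 and AstA cells and 11.4 in AstC cells. Those of zfh2 were 0.362 to 0.509 in ITP, Trissin, AstC and AstA cells, and 3.11 and 5.13 in Pdf and CCHa1 cells. Their lower calls thus largely restate the high classes and are not separate results.

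The strongest differences were those of pdm3 in AstC cells and of ap in CCHa1 cells. The POU gene pdm3 (FBgn0261588, dm6 2R:8327490-8396280, plus strand) is known from the wiring of olfactory neurons. Its level in AstC cells was 2.55 TP10K in the lowest batch, 11.4 in the median one and 36.7 in the highest, against 0, 0.424 and 3.89 in batches of the other gated classes. Only the lowest AstC batches fell within the range of the other classes. The fitted difference was 22.8-fold (log2 4.51, SE 0.134, adjusted p = 9.41e-69, edgeR quasi-likelihood test). By single cells, 92.6% of AstC cells had a UMI of pdm3 (exact 95% interval 89.7% to 94.8%, counting error alone), and 84.9% did after thinning. In Pdf, ITP, CCHa1 and AstA cells 39.2% to 45.5% had one, and 17.2% to 26.7% after thinning.

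The low levels of pdm3 in most other classes followed their low levels of AstC. For every 100 UMIs of AstC there were 9.28 UMIs of pdm3 in AstC cells, 10.3 in Pdf cells, 10.6 in CCHa1 cells, 11.6 in ungated cells and 13.5 in ITP cells. RNA of AstC cells that is spread over the plate would keep such a ratio, so the pdm3 of Pdf, CCHa1 and ITP cells cannot be told apart from that background. Ungated cells are a mixture, in which 40 cells had at least 10 TP10K of pdm3 and the highest had 45.3. How much of their pdm3 is background was not tested. Trissin cells stood outside this ratio with 42.2, and AstA cells with 2.22. AstC averaged 34.2 TP10K in AstA cells but 6.11 in their median cell, so that ratio rests on a subset of them. In Trissin cells pdm3 was found in 76.3% of cells (exact 95% interval 69.2% to 82.5%, counting error alone).

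The LIM gene ap (FBgn0267978, dm6 2R:5706202-5727525, minus strand) is known as the selector of the dorsal wing and, in the nerve cord, from the identity of neuropeptide cells. In CCHa1 cells it ran from 0.185 TP10K through a median of 1.41 to 4.81, and in the other gated classes from 0 through 0.0485 to 0.653. The groups of batches overlapped only at the bottom of the CCHa1 range. The difference was 19.96-fold (log2 4.32, SE 0.208, adjusted p = 8.2e-44), and 75.4% of CCHa1 cells had a UMI of ap against 7.86% to 14.2% in the other gated classes.

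**Figure D2:**
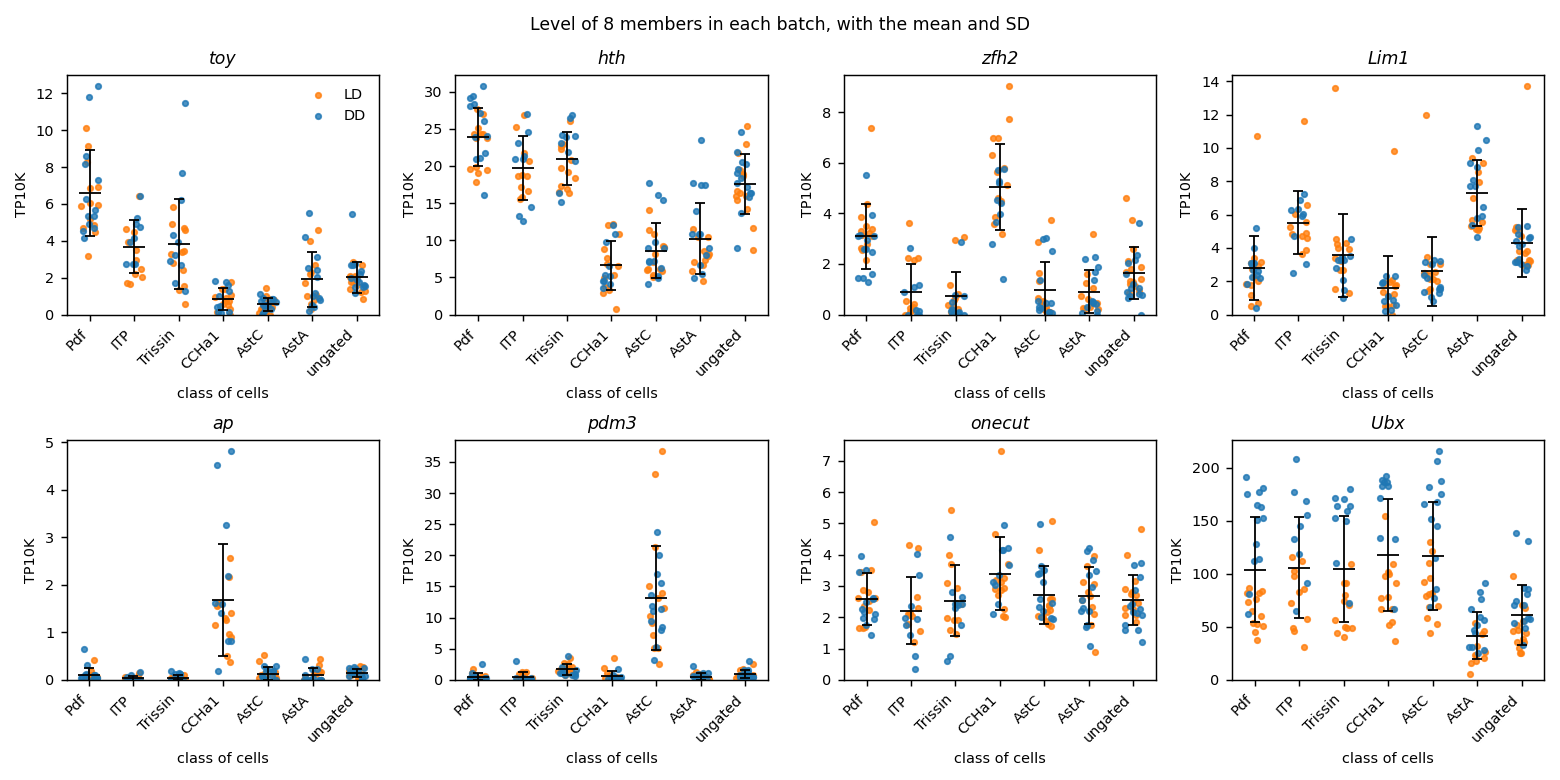
Level of 8 homeobox genes in TP10K, 1 point per batch, by class of cells, with LD batches in orange and DD batches in blue and bars for the mean and SD over batches. In AstC cells pdm3 lies mostly above its values elsewhere, ap does so in CCHa1 cells, and Ubx is lowest in AstA cells.

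Pdf cells were marked by toy, zfh2 and hth. In all, 3 members were called higher, against 17.3% of all genes tested, and 2 lower, against 10.9%. toy (FBgn0019650, dm6 4:989725-1007922, plus strand) is 1 of the Pax6 genes, the regulators of eye and brain formation. Its lowest, median and highest batches were 3.15, 5.92 and 12.4 TP10K in Pdf cells and 0, 1.4 and 11.5 in the other gated classes, a 4.14-fold difference (log2 2.05, SE 0.127, adjusted p = 1.17e-32). The ranges overlapped, and the highest batch of the other classes was 1 of Trissin cells. A UMI of toy was found in 95% of Pdf cells, in 90.7% of ITP cells and in 88.2% of Trissin cells, and in 49.1% to 56.8% of the cells of the other gated classes.

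zfh2 (FBgn0004607, dm6 4:501810-540874, plus strand), which encodes a large protein with zinc fingers and several homeodomains, ran from 1.27 through 3.11 to 7.37 TP10K in Pdf cells and from 0 through 0.655 to 9.02 in the others. It was 3.12-fold higher (log2 1.64, SE 0.156, adjusted p = 2.86e-18). hth (FBgn0001235, dm6 3R:10507561-10639568, minus strand) ran from 16.1 through 24.1 to 30.8 against 0.771, 10.9 and 27.0, and was 2.06-fold higher (log2 1.04, SE 0.0755, adjusted p = 1.22e-26). All Pdf batches of zfh2 lay within the range of the other classes. For hth the Pdf median lay within that range, and only the upper Pdf batches were above it. Lower in Pdf cells were pdm3 (log2 -1.55, SE 0.189, adjusted p = 2.17e-12) and the LIM gene Lim1 (log2 -0.41, SE 0.116, adjusted p = 0.00235). The batches of Lim1 overlapped throughout, from 0.384 to 10.7 TP10K against 0 to 13.6, and its call was lost in DD batches alone (log2 -0.23, adjusted p = 0.432).

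ITP cells, which include clock neurons of the dorsal lateral group in the adult brain, shared toy and hth with Pdf cells and added Lim1. Here 4 members were higher, against 9.9% of all genes, and 5 lower, against 8.5%. Lim1 (FBgn0026411, dm6 X:8756539-8805804, minus strand), known from the development of legs, antennae and brain neurons, ran from 2.5 through 5.42 to 11.7 TP10K against 0, 2.7 and 13.6 (log2 0.997, SE 0.121, adjusted p = 4.03e-12). toy reached 1.68, 3.71 and 6.45 against 0, 1.54 and 12.4 (log2 1.01, SE 0.157, adjusted p = 3.78e-08). hth reached 12.6, 19.7 and 27.0 against 0.771, 11.5 and 30.8 (log2 0.82, SE 0.0867, adjusted p = 7.39e-15). For all 3 genes the ITP batches lay inside the range of the other classes, with their medians above the median of it. Ubx in ITP cells was higher by log2 0.33 (SE 0.0829, adjusted p = 0.00102). This lies at the limit on the size of a difference and fell below it without 12 single batches, at log2 0.23 at the least (without CT14 batch 2).

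On the lower side in ITP cells stood ap, at 0 in the median batch and 0.169 TP10K in the highest (log2 -2.28, SE 0.461, adjusted p = 3.01e-05), and pdm3, at 0, 0.274 and 2.95 (log2 -1.44, SE 0.237, adjusted p = 2.37e-07). Of these, pdm3 lies near the background described above. Median batches of ap were 0 to 0.0833 TP10K in every gated class but CCHa1. Its lower call thus lies near the floor and in part restates the high CCHa1 cells. The other members called lower were zfh2, oc and onecut, with log2 differences of -0.89, -0.83 and -0.32. The last of these fell below the same limit without any of 10 batches (log2 -0.27, adjusted p = 0.046, without CT22 batch 2). The call of oc was lost in LD batches alone (adjusted p = 0.249), and that of zfh2 in DD batches alone (adjusted p = 0.0967).

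Trissin cells carried toy and hth together with pdm3. The call was higher for 3 members, against 10.2% of all genes, and lower for 3, against 9.56%. toy reached 0.557, 3.36 and 11.5 TP10K against 0, 1.7 and 12.4 (log2 0.99, SE 0.153, adjusted p = 2.29e-08), and hth 15.3, 21.3 and 27.0 against 0.771, 11.4 and 30.8 (log2 0.88, SE 0.0839, adjusted p = 6.89e-18). These batches overlapped with those of the other classes. For pdm3 the Trissin batches were 0.6, 1.53 and 3.89 against 0, 0.442 and 36.7, where the upper end belongs to AstC cells (log2 0.99, SE 0.184, adjusted p = 4.47e-06). This call was lost without the batch as a block (adjusted p = 0.0867). Lower were ap (log2 -1.52, SE 0.41, adjusted p = 0.0023), which had a UMI in 8.28% of Trissin cells, zfh2 (log2 -1.39, SE 0.229, adjusted p = 1.76e-07) and ct (log2 -0.79, SE 0.279, adjusted p = 0.0285). The call of ct, a gene of sensory organ identity and dendrite shape, was lost without CT2 batch 2 (adjusted p = 0.053). That of ap was lost in DD batches alone (log2 -0.87, adjusted p = 0.428). The level of ap lies near the floor here too, and its lower call in part restates the high CCHa1 cells.

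CCHa1 cells were high in ap and zfh2 and low in toy, Lim1 and hth. There 4 members were higher, against 10.6% of all genes, and 4 lower, against 13.7%. Next to ap, zfh2 ran from 1.42 through 5.13 to 9.02 TP10K against 0, 0.705 and 7.37 (5.69-fold, log2 2.51, SE 0.164, adjusted p = 1.7e-30), and 94.2% of the cells had a UMI of it. Ubx, a Hox gene, and onecut were higher by less (log2 0.41, SE 0.0776, and log2 0.35, SE 0.0913). The call of onecut was kept in 6 of 12 alternative settings. In LD batches alone it fell below the limit on size (log2 0.29, adjusted p = 0.0443). On the lower side toy stood at 0, 0.722 and 1.82 TP10K against 0, 2.73 and 12.4 (log2 -1.60, SE 0.193, adjusted p = 1.4e-12). Lim1 stood at 0, 1.23 and 9.84 against 0.384, 3.29 and 13.6 (log2 -1.45, SE 0.142, adjusted p = 2.36e-17). hth and pdm3 were also lower, by log2 -1.27 and -1.18. All CCHa1 batches of toy lay below the median of the other classes, while Lim1 had 1 batch far above the rest. The LD mean of Lim1 was highest at ZT14 in CCHa1 cells (5.79 TP10K). It was so too in Pdf, ITP, Trissin and AstC cells (7.05, 8.61, 8.47 and 7.21), but not in AstA cells, which had 1 batch at ZT14. The other classes had 2 batches there. Their highest LD batches of Lim1 reached 9.84 to 13.6 TP10K, against LD medians of 1.33 to 4.87. No LD rhythm of Lim1 was called in any gated class (adjusted p = 0.301 to 0.864). Whether single batches carry the ZT14 means was not tested.

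AstC cells were high in pdm3 and, like CCHa1 cells, low in toy, Lim1 and hth. In them 4 members were higher, against 13.5% of all genes, and 4 lower, against 10.3%. After pdm3, ct had the next highest fold, with batches at 0, 0.609 and 2.02 TP10K against 0, 0.221 and 2.16 (log2 1.14, SE 0.196, adjusted p = 4.13e-07). The head gene oc was higher by log2 0.87 (SE 0.168, adjusted p = 5.71e-06) and Ubx by log2 0.44 (SE 0.0734, adjusted p = 2.31e-07). The call of oc was lost without the batch as a block (adjusted p = 0.5) and with gates 2 times as high (adjusted p = 0.091). The batches of ct, oc and Ubx overlapped with the others over nearly the whole range. toy stood at 0, 0.532 and 1.43 TP10K against 0, 2.78 and 12.4 (4.29-fold lower, log2 -2.10, SE 0.175, adjusted p = 5.24e-22). zfh2, hth and Lim1 were lower by log2 -0.97, -0.81 and -0.53. The call of Lim1 was lost in LD batches alone (adjusted p = 0.0551). Without the batch as a block those of Lim1 and zfh2 were lost (adjusted p = 0.126 and 0.124).

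AstA cells stood out by high Lim1 and by low Ubx, the latter together with low EGFP. The 2 members called higher compare with 10.9% of all genes, and the 4 lower with 14.5%. Lim1 batches ran from 4.63 through 7.36 to 11.3 TP10K against 0, 2.61 and 13.6 (2.62-fold, log2 1.39, SE 0.11, adjusted p = 2.44e-23), so every AstA batch was above the median of the other classes. Ubx (FBgn0003944, dm6 3R:16656623-16734426, minus strand) ran from 5.38 through 37.4 to 91.4 against 30.7, 98.3 and 215.6 (log2 -1.57, SE 0.0892, adjusted p = 9.1e-36). The lower batches of AstA were below every batch of the other gated classes. EGFP was also lowest in AstA cells, at 11.2 TP10K against 28.2 to 31.9 in the other gated classes. Ubx followed EGFP across cells (Spearman's rho 0.919 over 5001 cells). Whether Ubx is low in AstA cells apart from their low EGFP was not tested. pdm3 was lower by log2 -1.34 (SE 0.227, adjusted p = 3.7e-07), and zfh2 and hth by log2 -0.90 and -0.67. The call of zfh2 was lost in DD batches alone (adjusted p = 0.069).

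The call of zfh1 in AstA cells, a gene of motor neurons and mesoderm, rests on few molecules. Its median batch was lower in AstA cells (0.0264 TP10K) than in the other classes (0.073), while the fitted difference was log2 0.90 (SE 0.319, adjusted p = 0.0235). The call was lost without any of 4 batches, among them ZT14 batch 2 (log2 0.59, adjusted p = 0.171) and ZT6 batch 2 (log2 0.67, adjusted p = 0.132), a batch with high sums of glial and fat body markers. The part of these was not tested.

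Taking the classes by gene, hth divided them in equal numbers: higher in Pdf, ITP and Trissin cells and lower in CCHa1, AstC and AstA cells. Both hth and exd encode TALE proteins that work as partners, with Hth bringing Exd into the nucleus. exd was even, with medians of 1.3 to 1.49 TP10K over batches in the 6 gated classes, and it was not called in any of them. toy followed the side of hth in 5 classes and was not called in AstA cells. zfh2 was higher in Pdf and CCHa1 cells and lower in the other 4 classes. Its relative on the list, zfh1, was called in 1 gated class, AstA, as given above.

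Of the 52 calls in the 7 comparisons, 50 could be tested in LD batches alone, where 50 had the same direction and 44 the same call. In DD batches alone 51 could be tested, 51 had the same direction and 41 the same call. The 52 calls came from a fit that includes these same batches. A shared direction is thus favoured by the choice of calls and is not an independent test.

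Cells just inside and just outside a gate were set side by side as a description. Within 20% of the AstC gate, pdm3 averaged 9.9 TP10K in the 17 cells just inside and 3.54 in the 14 just outside. toy averaged 5.86 TP10K in 17 cells just inside the Pdf gate and 3.01 in 13 just outside. At the CCHa1 gate ap was alike on both sides, 0.484 TP10K in 4 cells inside and 0.56 in 6 outside, each below the class mean of 1.63. Some members called higher went the other way. At the AstA gate Lim1 averaged 4.36 TP10K in 17 cells just inside and 5.5 in 36 just outside. At the ITP gate, with 6 cells inside and 4 outside, Lim1 was at 3.67 and 4.62, toy at 2.45 and 3.52, and hth at 19.3 and 24.6.

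Of the 18 members tested, 9 were higher in ungated cells than in the mean of the gated classes, against 16.3% of all genes, and 1 was lower, against 8.95%. The folds were largest for ct (3.49-fold, log2 1.80, SE 0.156, adjusted p = 1.05e-20), zfh1 (log2 1.77, SE 0.202, adjusted p = 1.8e-13) and the POU gene pdm2 (log2 1.51, SE 0.137, adjusted p = 2.29e-19). For ct the ungated batches ran from 0.184 through 1.18 to 1.97 TP10K, and the gated ones from 0 through 0.28 to 2.16, with overlap at both ends. The other members called higher were nub, Lim3, oc, vvl, acj6 and hth, with log2 differences of 0.40 to 1.04, and Ubx was lower by log2 -0.61. Ungated cells are a mixture, and a level averaged over them does not describe a type.

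The 3 highest ratios of ungated to gated level belonged to members too low to be tested. Ptx1, a relative of the Pitx genes, had 810 UMIs in ungated and 40 in gated cells, a ratio of 10.2 in TP10K, and was found in 7.48% and 2.28% of cells. The Hox gene pb, which specifies mouthparts, had a ratio of 6.17 and was found in 7.54% and 2.84% of cells. tup, the islet gene of the fly, had a ratio of 5.5 and was found in 10.7% and 3.79%. Of the other members too low to be tested several had ratios near or below 1, such as Antp (1.11) and repo (0.799). These ratios were taken over summed cells and carry no test.

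The other homeobox genes of the fly, 44 of which are in the files, were low for the most part, and 3 passed the filter on low counts: NK7.1, pros and B-H2. In Pdf cells NK7.1 was higher (log2 1.42, SE 0.137, adjusted p = 6.77e-18), and it was lower in AstC cells (log2 -1.11) and in ungated cells (log2 -0.69). pros, whose product drives neural precursors out of division, was higher in AstC cells (log2 1.06, SE 0.151), AstA cells (log2 1.76, SE 0.156) and ungated cells (log2 1.72, SE 0.135) and lower in the other 4 classes. B-H2 was not called in any class.

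For time of day, a cosine and a sine with a period of 24 h were fitted in each class, and a gene counted as a cycler with an adjusted p under 0.05, a ratio of the highest to the lowest time point of at least 1.5 and a highest time point of at least 0.8 TP10K. The core clock gene tim passed as a check in 6 of 6 gated classes when LD and DD were fitted together. In LD alone it did not pass in Trissin and CCHa1 cells (adjusted p = 0.0606 and 0.0778), and in DD alone not in CCHa1, AstC and AstA cells (adjusted p = 0.682, 0.0594 and 0.354), so a gene that does not pass in these fits may still cycle. Over the 6 classes 67 tests of members were made in LD, and 1 was a cycler, against 1.46% of all gene and class tests. In DD 1 of 56 was, against 0.906%, and in the joint fit 1 of 70, against 4.3%. The counts of member tests at an unadjusted p under 0.05 were 10, 7 and 7.

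The cycler in LD and in the joint fit was pdm3 in AstC cells. In LD its batches were 5.09 and 7.17 TP10K at ZT2, 13.9 and 10.2 at ZT6, and 33.1, 36.7 and 21.4 at ZT10. They were 13.1 and 15 at ZT14, 9.05 and 11.5 at ZT18, and 2.55 and 5.17 at ZT22. All 3 batches of ZT10 were above every other LD batch, and the lowest batches were those of ZT22 and ZT2. The fit peaked at 10.8 h, with a log2 difference between peak and trough of 2.56 (adjusted p = 0.00331, edgeR quasi-likelihood test, 13 batches). With the time point as a factor in place of the cosine the adjusted p was 0.0718.

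In DD the batches of pdm3 were 5.27 and 11.3 TP10K at CT2, 15.6 and 8.44 at CT6, and 11.8, 9.52 and 20.1 at CT10. They were 23.8 and 17 at CT14, 13.7 and 11.1 at CT18, and 7.93 and 3.26 at CT22. The means were highest at CT14 (20.4) and lowest at CT22 (5.6), but time points overlapped more than in LD. In this fit the gene was not a cycler (log2 amplitude 1.29, peak 12.5 h, adjusted p = 0.31). With the batch number as a block it was one (adjusted p = 0.027), though only 4 pairs of DD batches from different time points share a number. A DD rhythm thus depends on the model. The difference between the LD and DD rhythms had an unadjusted p of 0.0518 and an adjusted p of 0.578, so it was not shown. With LD and DD fitted together the peak lay at 11.4 h, with a log2 amplitude of 1.93 (adjusted p = 0.000361, 26 batches).

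**Figure D3:**
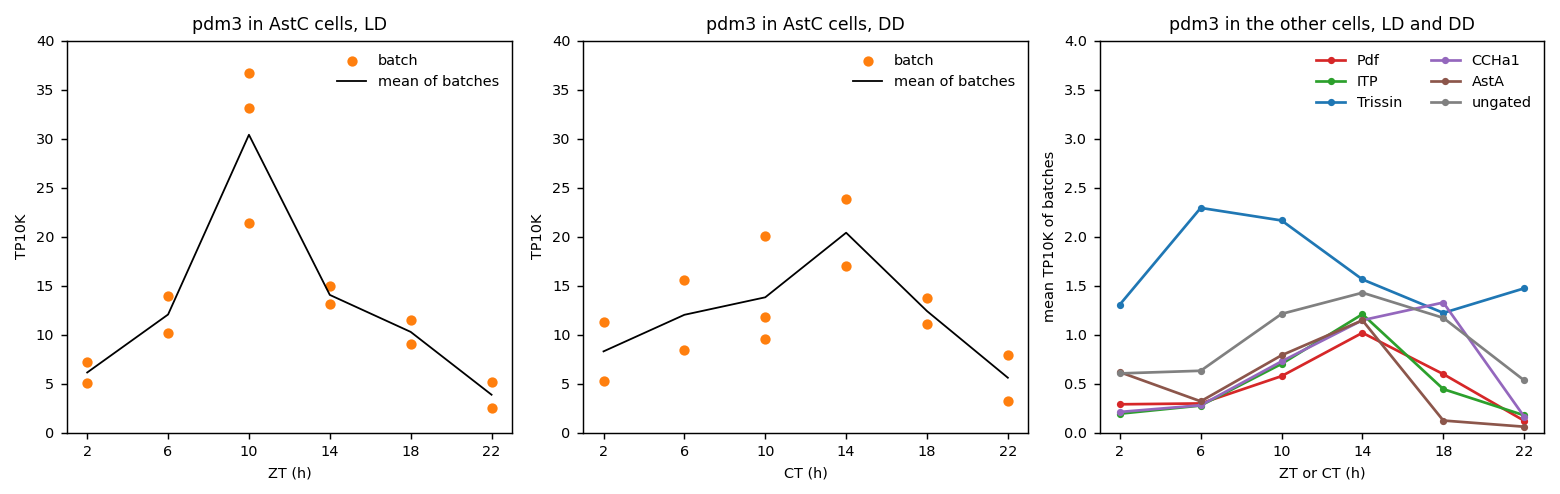
Level of pdm3 in TP10K in AstC cells by time, with 1 point per batch and a line through the means, in LD (left) and DD (middle), and the means of the other classes with LD and DD together (right, on a smaller scale). In LD the 3 batches of ZT10 lie at 21.4 to 36.7 TP10K, above all others, and in Trissin cells the mean is highest at 6 h with LD and DD together.

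Taken singly, the same AstC cells describe the difference in LD, without a test and with no further replicates. The median cell had 28.4 TP10K of pdm3 at ZT10, with quartiles of 16.3 and 39.3, and 2.86 at ZT22, with quartiles of 1.39 and 5.5. After thinning, the share of cells with a UMI was 95.3% at ZT10 and 62.5% at ZT22. AstC itself had medians of 183 TP10K at ZT10 and 101 at ZT22.

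Trissin cells, the other class with pdm3 above the background, had LD means of 2.81 TP10K at ZT6, 2.35 at ZT10 and 0.881 at ZT14. Their DD means were highest at CT14 (2.24) and lowest at CT18 (0.992), with a fitted peak at 12.8 h, close to the 12.5 h of AstC cells in DD. No rhythm was called in them (adjusted p = 0.485 in LD and 0.902 in DD), while the difference of their rhythm from the mean rhythm of the other 5 classes was (log2 amplitude of the difference 2.40, adjusted p = 0.00212). Of 102 such tests of members 2 were called, against 3.14% of all gene and class tests, and 5 had an unadjusted p under 0.05. The call was lost with gates 2 times as high (adjusted p = 0.0931). As 4 of the 5 classes on the other side of this test hold pdm3 near the background, a rhythm of their own cannot be told apart from that of AstC cells.

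The other 2 classes in which pdm3 had the smallest p of all members were ITP (joint fit, adjusted p = 0.178, peak 13.3 h) and CCHa1 (adjusted p = 0.112, peak 14.3 h). Both stayed above the threshold, at levels near the background. In Trissin cells the smallest p was that of toy in DD (adjusted p = 0.268), and in AstA cells that of Ubx in LD (adjusted p = 0.328).

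The cycler in DD was oc in Pdf cells, the gene of the Otx family that patterns the head and ocelli. Its batches at CT6 were 1.81 and 4.76 TP10K, and the other 11 DD batches were between 0.041 and 0.805, without overlap. The fit peaked at 5.98 h with a log2 amplitude of 4.46 (adjusted p = 0.0155), and the call was lost without CT6 batch 3 (adjusted p = 0.0554). The ungated cells of the same 2 batches were also high, at 2.03 and 7.17 TP10K. Against the mean rhythm of the other classes, oc in Pdf cells did not differ (adjusted p = 0.942).

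oc and vvl moved by batch in all classes together. In ungated cells oc was 4.46 TP10K in ZT6 batch 1 and 0.361 in ZT6 batch 2, and 9.57 in ZT18 batch 1 against 0.836 in ZT18 batch 2. Pdf cells of these batches had 3.55 and 0.135 and then 8.03 and 0.808. The 2 batches of each of these time points thus stood far apart, in the same way in gated and ungated cells. vvl, a POU gene of trachea and neurons, did this in other batches: ungated cells had 5.85 TP10K in ZT14 batch 1 and 1.09 in ZT14 batch 2, and Pdf cells 6.98 in the former. The engrailed relative inv was 3.54 TP10K in ungated cells of ZT22 batch 2, where oc was 12 and vvl 8.95, and its median over all batches was 0.0994. ZT6 batch 1, ZT18 batch 1 and ZT22 batch 2 carry the same batch number in the labels. ZT10 batch 1 carries it too, with oc at 0.576 TP10K in ungated cells, and the CT6 batches carry others. What a number marks is not given in the sources used here.

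**Figure D4:**
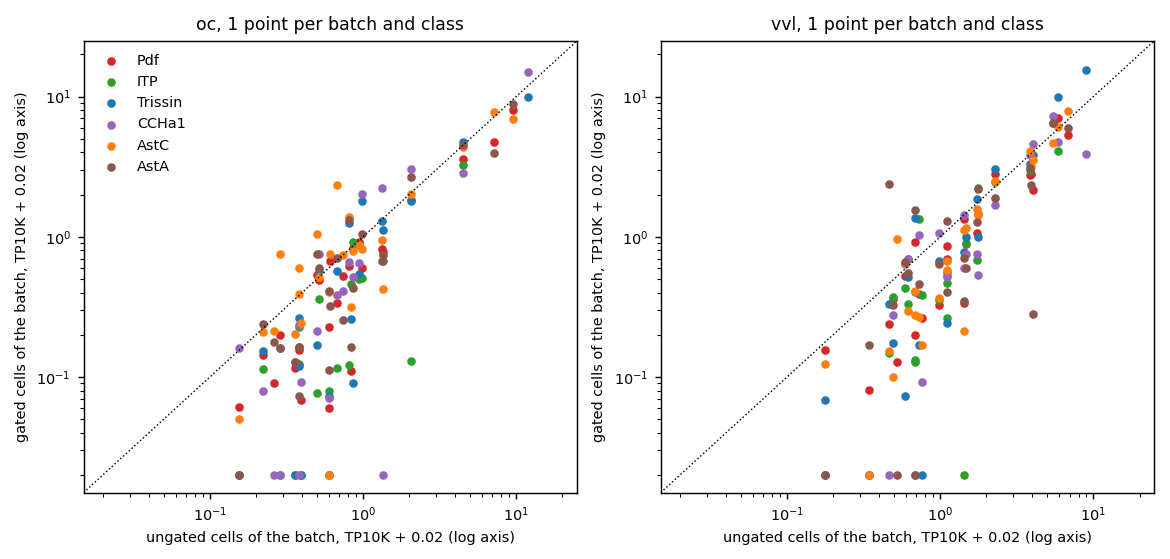
Level of oc (left) and vvl (right) in gated cells against that in ungated cells of the same batch, in TP10K plus 0.02 on log axes, 1 point per batch and class, with a dotted line of equal levels. In the batches where ungated cells are high, up to 12 TP10K for oc and 8.95 for vvl, the gated classes are high as well.

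The test of a difference between the LD and DD rhythms called 0 of 85 tests of members, and 0% of all gene and class tests. An unadjusted p under 0.05 was found in 15 of them, and DESeq2 called 1, vvl in ITP cells.

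Mean levels in LD and DD were compared for the members tested in each class, and 3 of 49 tests were called, 11 having an unadjusted p under 0.05. All 3 were of Ubx and higher in DD, where 1.22% of all gene and class tests were called higher and 2.17% lower. In Pdf cells Ubx ran from 37.4 through 64.5 to 86.8 TP10K in LD and from 61.9 through 152.5 to 190.6 in DD (log2 0.96, SE 0.166, adjusted p = 0.000891). The upper DD batches were above every LD batch. In Trissin cells the difference was log2 0.97 (SE 0.199, adjusted p = 0.0162) and in CCHa1 cells log2 0.82 (SE 0.176, adjusted p = 0.0148). In ITP, AstC and AstA cells it was log2 0.80, 0.62 and 0.89 and did not pass (adjusted p = 0.111, 0.0744 and 0.104). With library size in place of TMM normalization Ubx was called in all 6 classes. Without CT10 batch 3 the call in Trissin cells was lost (adjusted p = 0.0805), as it was without CT6 batch 1 (0.0559). In CCHa1 cells it was lost without any of 8 batches (adjusted p = 0.0781 at the highest, without CT14 batch 1).

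Ubx, which gives the hind thorax its identity, had a UMI in 99.5% to 100% of the cells of each class, and its level followed that of EGFP. Spearman's rho between Ubx and EGFP was 0.919 over 5001 cells and 0.848 to 0.909 within the 7 classes. Depth and batch are shared by the 2 measures. Of the other 44 members the next highest rho was 0.11, for toy. In Pdf cells Ubx averaged 32.8 TP10K in the 140 cells with the least EGFP and 160 in the 139 with the most. In AstA cells, with the lowest EGFP of the gated classes (11.2 TP10K against 28.2 to 31.9), the same groups of cells had 13.7 and 79.6. Ubx in gated cells had a median over batches of 153 TP10K in DD and 69.3 in LD, and EGFP one of 43.8 and 18.9. The differences of Ubx between classes and between LD and DD thus went along with those of the driver's reporter. Whether the Ubx counts come from the endogenous gene was not tested. An antisense RNA overlaps exons of Ubx on the other strand.

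**Figure D5:**
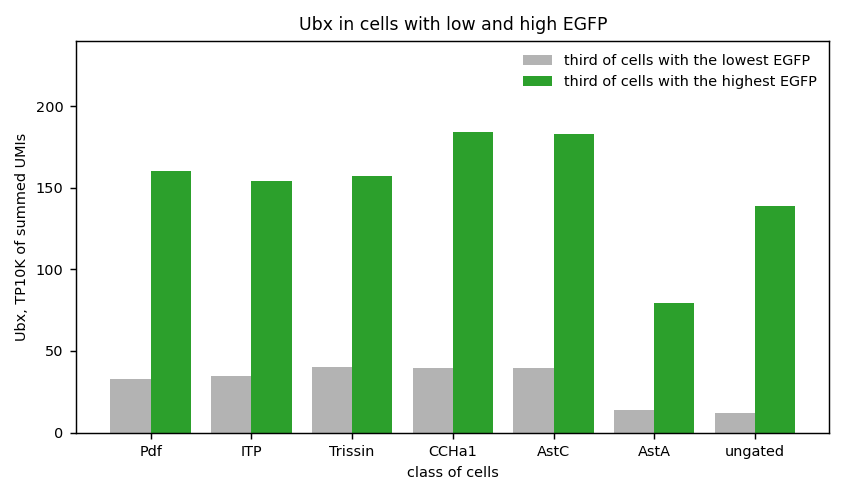
Level of Ubx in TP10K of summed UMIs in the cells with the lowest and with the highest EGFP of each class, a bar for each. Ubx is higher in the cells with more EGFP in all 7 classes, for example 160 against 32.8 in Pdf cells.

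Members that appear in the same cells were sought in the thinned cells. Of 990 pairs of members, 29 had a phi coefficient over 0.1 and 0 had one under -0.1, with a median of 0.00811. The highest was that of Optix and Dll, a gene of eye formation and the limb gene Distal-less, with a phi of 0.31. They occurred together in 71 cells where the product of their shares gives 8.8, and all 71 were ungated. These cells came from 25 batches and 47 libraries, with at most 6 in 1 batch.

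The next pairs joined the Iroquois gene mirr, the paired-type gene otp and pb: mirr and pb (phi 0.242, 69 cells), otp and pb (0.229, 76 cells) and mirr and otp (0.221, 114 cells). Of these cells 65, 74 and 102 were ungated, and each pair came from 21 to 25 batches. The pair of oc and inv (phi 0.219, 283 cells) was of another kind, since 170 of its cells came from ZT6 batch 1, ZT18 batch 1 and ZT22 batch 2, the 3 batches of 1 batch number named above. The order of phi depends on how common a gene is and on depth, and the values carry no test.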

How the data were processed

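The authors aligned CEL-Seq2 reads to dm6 and deposited UMI counts per gene and well, with no normalization; demultiplexing used bcl2fastq 2.20 per the submitters' processing notes. The annotation release is not given in the sources used here. Of all UMIs 2.67% fell on 92 spike-in and EGFP rows, which were kept out of library sizes and tests. The 45 members and all lists were chosen with earlier results of these data known. Wells were kept with 1000 to 6000 genes and 6000 to 75000 UMIs, and gated on TP10K. UMIs were summed per batch and class with at least 3 cells and analysed with edgeR 4.0.16 in R 4.3.3 by its quasi-likelihood test after TMM normalization and filterByExpr. P-values were adjusted by Benjamini and Hochberg over all genes tested of a class. A class needed at least 8 batches for a test of rhythm. All adjusted p-values are from this tool unless named otherwise, and the scripts were tested on simulated data. No doublet caller was run, and the 35 cells of several classes were left out. Members given in full are the 4 highest and 2 lowest called per gated class by fold, pdm3, every cycler or else the smallest p of a class, the 3 highest ratios of ungated to gated level and the 5 highest phi. vvl, inv, Ubx against EGFP and zfh1 were described in more detail after their values were seen. Gene coordinates are from an Ensembl annotation of dm6, by symbol, where 45 of 45 matched and exons of 8 members overlap those of another gene. Of the 96 well barcodes, 92 are found in every library, since the plates share 1 set. Alternatives were no filter, DESeq2 1.42.0, library size alone, no batch block or the batch number as a block, a fold of 2, LD or DD batches alone (added after seeing the data), 1 or 6 cells per batch, an entropy of 5.5, other gates, the time point as a factor, thinning to 6000 UMIs, and leaving out each batch.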

Additional observations from a re-analysis of the deposited data

Results flagged for a closer look

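The rhythm of 2 members differed between classes of cells by a test of the difference itself. pdm3 in Trissin cells differed from the mean of the other 5 gated classes (adjusted p = 0.00212, edgeR quasi-likelihood test), with LD means of 2.81 TP10K at ZT6 and 0.881 at ZT14, while in AstC cells the LD means were 12 at ZT6 and 14 at ZT14. In DD the means were highest at CT14 in both classes, with fitted peaks at 12.8 h in Trissin cells and 12.5 h in AstC cells. Ubx in AstA cells also differed from the mean of the other 5 gated classes (adjusted p = 0.00577). Its LD means were 49.8 TP10K at ZT2, 21.5 at ZT10 and 10.4 at ZT18, and its DD means were 30.6 at CT2 and 83.8 at CT6. The batches at ZT18 were 15.5 and 5.38 TP10K, and without ZT18 batch 2 the adjusted p was 0.0731. With at least 1 cell per batch it was 0.127, and with cells counted in every gate they passed 0.0617. Ubx in AstA cells was not a cycler in LD (adjusted p = 0.328), in DD (adjusted p = 0.843) or in both (adjusted p = 0.503). The part of EGFP in the course of Ubx was not tested.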

How the results depend on the processing

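Of 67 single results, 26 had the same call in every setting, 59 had it without every batch, and 0 reversed. Of the 52 class differences, 23 and 48 did. A fold of at least 2 left 3 members called in ITP cells (of 9), 2 in Trissin cells (of 6), 3 in AstC cells (of 8), 3 in AstA cells (of 6) and 5 in ungated cells (of 10). Without the batch as a replicate block 5 were called in ITP cells and 5 in AstC cells, and 37 of the 52 calls were kept. Without the filter on low counts 45 members could be tested and 37 were called in ungated cells, and the counts rose to 12 cyclers in LD, 11 in DD, 8 jointly, 23 differences between LD and DD rhythms and 8 differences in level. DESeq2 called 3 cyclers in LD, 3 jointly, 1 rhythm difference between LD and DD and 5 levels. The time point as a factor left 0 cyclers in LD, and gates 2 times as high gave 2 cyclers jointly. Differences between the rhythms of classes fell from 2 to 1 with at least 1 cell, with every gate passed and with gates 2 times as high. Differences in level rose from 3 to 6 with library size alone and fell to 1 with at least 6 cells. Of 14 pairs of LD batches with the same number, 6 had a correlation of deviations over 0.1, as had 21 of 67 pairs with different numbers. In DD it was 2 of 4 against 16 of 77, so whether batch numbers pair the batches was not settled. With the batch number as a replicate block DD had 2 cyclers over the 4 classes in which it could be fitted, with pdm3 in AstC cells added (adjusted p = 0.027), while pdm3 in AstC cells was kept in LD (adjusted p = 0.0194) and jointly (0.00015). The causes were not tested, apart from the number of tests made, which no filter raises.

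Leaving out each batch gave 5 to 6 calls in Pdf cells, 7 to 9 in ITP, 5 to 6 in Trissin, 8 in CCHa1, 8 in AstC, 5 to 7 in AstA and 10 to 12 in ungated cells. Cyclers numbered 1 to 2 in LD (2 without ZT6 batch 1), 0 to 1 in DD (0 without CT6 batch 3) and 1 jointly. Rhythm differences between LD and DD numbered 0 to 2 (2 without ZT6 batch 1, oc in AstA and in Pdf cells), those between classes 1 to 2 (1 without ZT18 batch 2), and differences in level 2 to 4. The filter on low counts left 18 of the 45 members for the tests between classes, and a class had a median of 6 to 17 cells per batch.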

Other observations

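Among ungated cells, 71 had both Optix and Dll, and 145 had at least 2 of mirr, otp and pb, of which 48 had all 3. The sets shared 0 cells and made up 2.1% and 4.28% of the ungated cells. The median number of UMIs per cell was 14885 and 13607, against 14844.5 in the other 3168 ungated cells, so that depth was much alike. Both held neuronal elav (6.84 and 7.29 TP10K against 5.89). The clock gene tim averaged 10.3 TP10K in the Optix and Dll cells, 5.2 in the mirr, otp and pb cells and 8.21 in the other ungated cells. hth stood at 8.88, 41.8 and 17.6 TP10K, VGlut at 2.92, 20.4 and 9.93, and Gad1, the gene of the GABA-making enzyme, at 1.09, 5.76 and 5.67. These cells were chosen for their members after the pairs had been seen, and the values carry no test.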
